A study of Mus musculus with 6 samples.

Results

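The genes described here are 49 genes of the cell cycle and mitosis, from the D-type cyclins and their kinases through replication licensing to the spindle and kinetochore. They were chosen by name: a gene belongs if the gene name of a non-control spot on the arrays equals 1 of the 49 listed symbols. The rule uses no measured value, though the list was drawn up with earlier results of these data known. All 49 were on the array, among 36999 named genes, with 91 probes. Of these, 48 were tested, each by its brightest tested probe. Ccne2, which encodes cyclin E2, had 1 probe, well above background on 0 of the 6 arrays.

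Gene expression was measured in 6 teratomas, tumours of mixed tissues grown from mouse embryonic stem cells (mESCs) implanted subcutaneously in immunodeficient BALB/c nude mice. The 3 miR-124a tumours were injected with a miR-124a mimic and the 3 control tumours with a miRNA negative control, each in complexes named “Atelogen QG” at 15 µg per 100 µL, every 3 days up to day 28. Injections began once a tumour measured 100 mm3, some 10 days after implantation. Mice were randomised, with 3 in each group, and each tumour was cut into 2 pieces of which 1 gave the RNA, so a value averages all cell types of that piece, host cells included. The line, genotype and passage of the mESCs and the age of the mice are not given in the sources used here. The histology and the level of the mimic were not analysed here.

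Cells commit to division in G1, when D-type cyclins with CDK4 or CDK6, and then cyclin E with CDK2, phosphorylate the retinoblastoma protein and release E2F factors. E2F factors switch on genes for replication licensing and nucleotide supply, and E2F7 and E2F8 later turn those genes down again. In G2 and mitosis the MYBL2 and FOXM1 complexes switch on cyclin B, the Aurora and Polo kinases and the spindle genes, many through a promoter element called CHR and through CCAAT boxes. In tissues that mature, cells leave the cycle and most of these genes fall silent. Not all do, since cyclin D3 accumulates when cultured mouse myoblasts leave the cycle. RNA of the replication and mitosis genes in a teratoma therefore comes mainly from whichever of its tissues still divide. miR-124 is a microRNA that neurons express at a high level.

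Values are log2 signal, where 0 is the 75th percentile of that array, so a value compares tumours for 1 probe and not 1 gene with another. Values of a gene are listed for tumours 1, 2 and 3 of a group in that order. In the main fit these numbers were not used to pair tumours across groups. No array had a saturated non-control spot (0 of 59305), and 63.4% to 65.9% of its probes stood well above background. Arrays correlated at 0.9882 to 0.992 among miR-124a tumours, at 0.9857 to 0.9886 among control tumours and at 0.9705 to 0.9868 between groups (across genes, which are not independent replicates). All 6 arrays share 1 slide, with the miR-124a tumours in 1 row and the controls in the other, so slide row and treatment cannot be told apart. Over 22944 genes, limma called 730 at an adjusted p under 0.05, of which 84.2% were lower with miR-124a. With normexp background correction it called 1549, of which 62.5% were lower, and with 1 tumour left out between 0 and 365.

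Most cell cycle genes were slightly lower in the miR-124a tumours, and few beyond the spread between tumours. Ccnd3, E2f2 and E2f8 fell (limma, adjusted p under 0.05), which is 3 of 48 tested members or 6.25%, against 2.68% of all tested genes called lower. None of the 48 was called higher with limma, against 0.501% of all genes (0 also at an unadjusted p under 0.05). With 1 tumour left out, Ccnd3 and E2f2 passed without miR-124a tumour 3 or control tumour 3, and 0 members passed without any of the others. Without any of those others, at most 12 of all 22944 genes passed. In bulk tissue, fewer cells of a type and less RNA per cell cannot be told apart. At an unadjusted p under 0.05, 9 members (18.8%) were lower, against 15.6% of all genes lower and 27.1% in either direction. In 9 members (18.8%) every miR-124a tumour lay below every control tumour, against 20.2% of all genes, and in 0 every one lay above, against 15.1%. Both shares of 18.8% are near the share over the whole array.

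The log2 fold change was below 0 in 45 of 48 members, against 50.1% of all tested genes, and the 3 above 0 were Cdk6, Cenpe and Cdc6. Without control tumour 3 the count was 37 of 48, and with any other 1 tumour left out it was 44 to 47. It was 45 with quantile scaling and with normexp, where Ccnd2 was above 0 and Cdc6 below it. The median log2 fold change was -0.26, or 1.19-fold lower, against -0.00072 over all genes. It remained below 0 when any 1 tumour was left out, and ranged from -0.40 without miR-124a tumour 1 to -0.097 without control tumour 3.

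**Figure D1:**
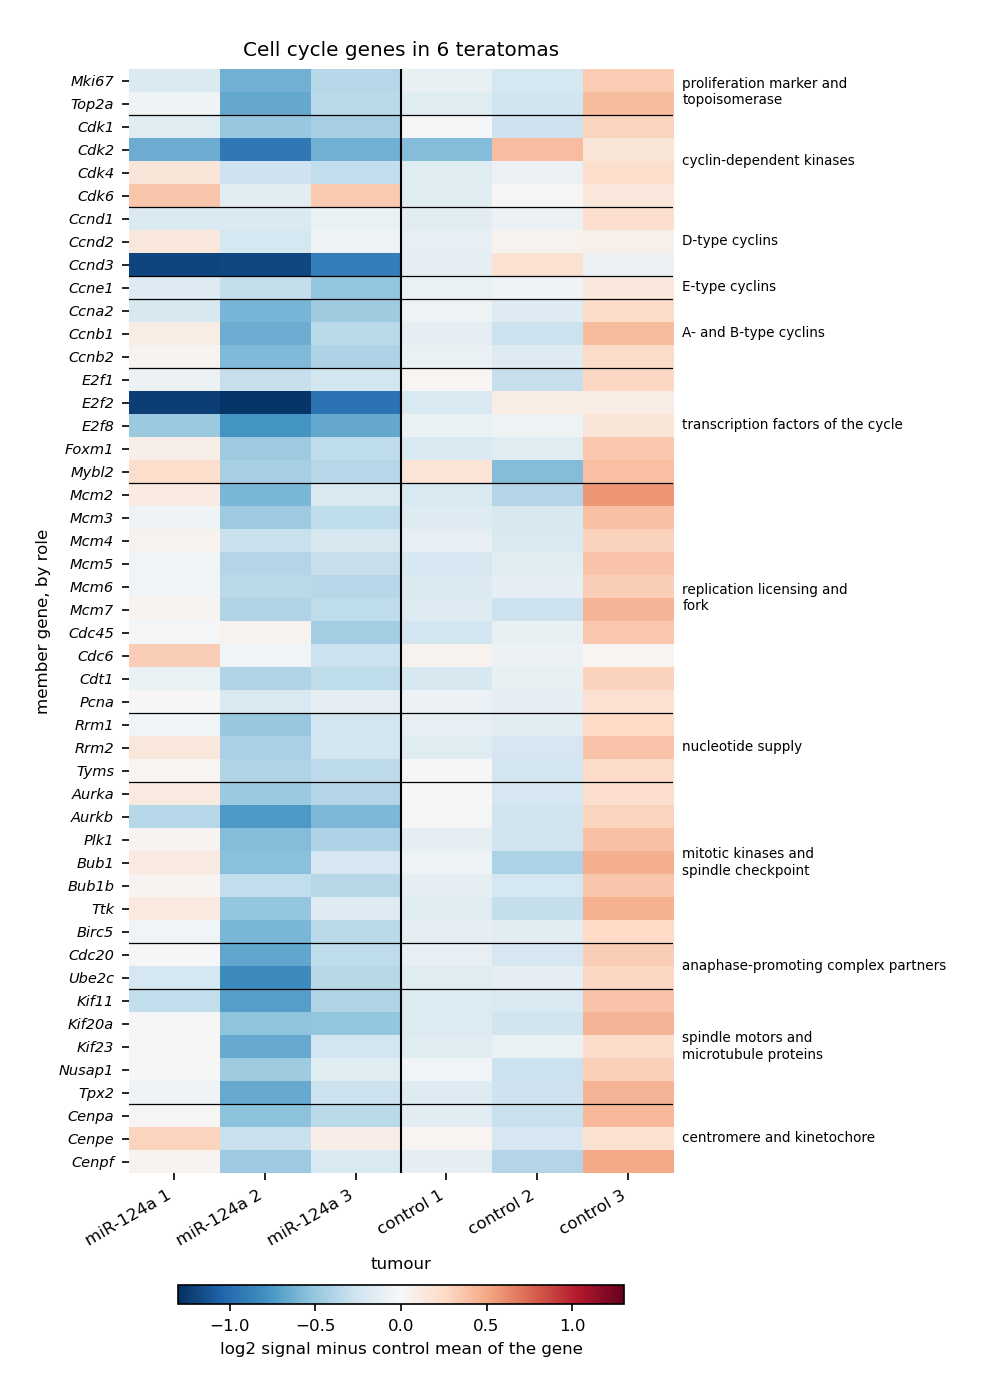
Log2 signal of each tested cell cycle gene (rows, grouped by role) in each teratoma (columns), minus the mean of the 3 control tumours for that gene; blue is below and red above that mean. Control tumour 3 is red in most rows, miR-124a tumour 2 is blue in most rows, and Ccnd3, E2f2 and E2f8 are blue in all 3 miR-124a tumours.

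This shift was uneven between tumours of a group. The median over the 48 members, relative to the control mean, was 0.0020, -0.49 and -0.34 in miR-124a tumours, against -0.12, -0.20 and 0.30 in control tumours. Control tumour 3 stood highest and miR-124a tumour 2 lowest, while miR-124a tumour 1 lay between the controls, so the groups overlapped. As a mean this was -0.27 ± 0.25 in miR-124a tumours and -0.0076 ± 0.27 in control tumours (SD, n = 3 each), a difference about the size of the spread.

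The same order recurred from gene to gene. Control tumour 3 had the highest of the 6 values in 41 of 48 members, against 17.9% of all tested genes. miR-124a tumour 2 had the lowest in 38, against 19.7%, and both held in 34, against 6.5%. Among the 3 miR-124a tumours, tumour 1 was highest in 43 members, against 34.2% of all genes, and tumour 2 lowest in 41, against 32.6%, and among controls tumour 3 was highest in 44, against 33.8%. In 34 members miR-124a tumour 1 lay within the range of the controls, against 39.1% of all genes. These genes therefore vary together across single tumours, and counts over them are not independent.

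**Figure D2:**
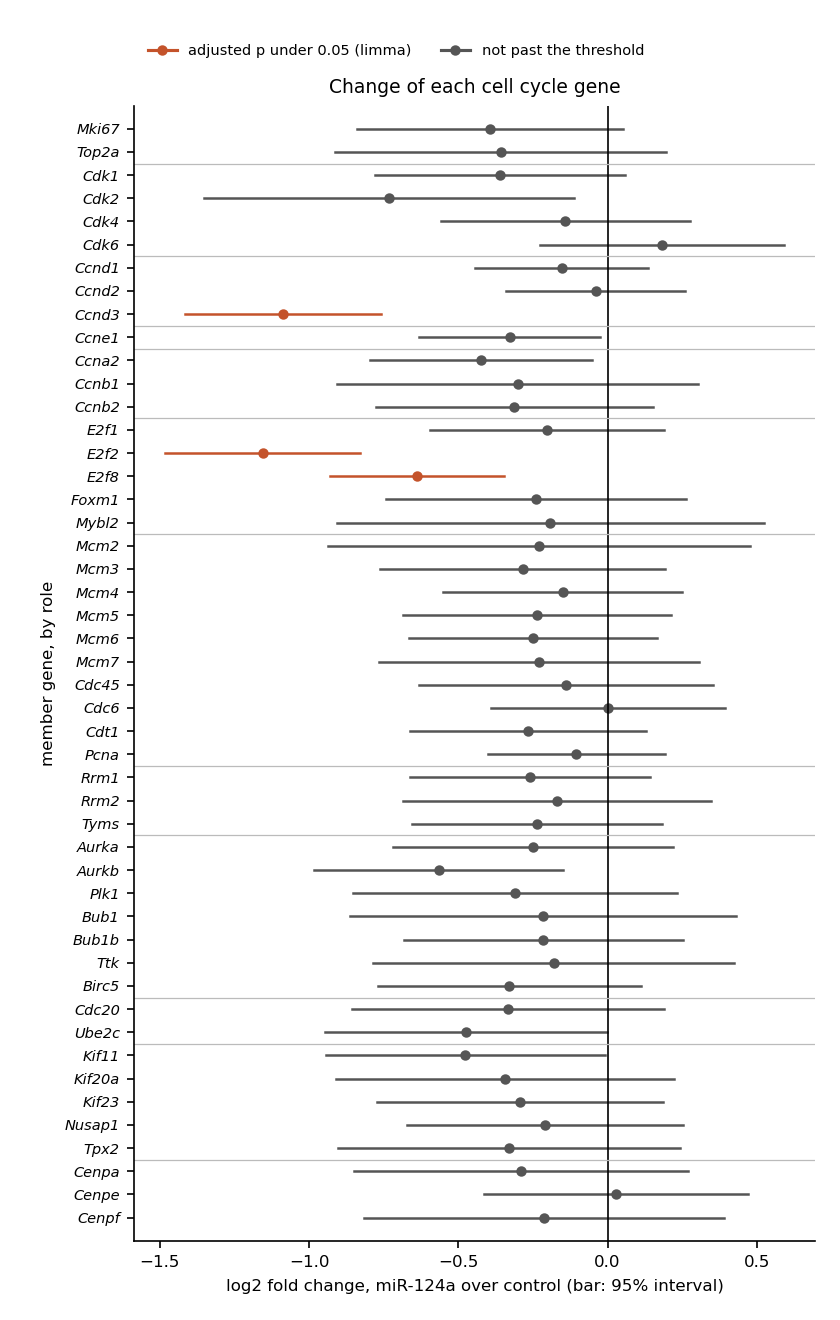
Log2 fold change of each tested cell cycle gene, miR-124a over control, with its 95% interval from limma (bars), over 3 tumours per group. Ccnd3, E2f2 and E2f8 (orange) passed the threshold, and most of the other intervals are centred left of 0 and cross it.

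Mki67, the proliferation marker Ki-67, read 3.06, 2.63 and 2.89 in miR-124a tumours, against 3.16, 3.02 and 3.58 in control tumours. The control range overlapped the miR-124a range only through miR-124a tumour 1, and the log2 fold change was -0.39 ± 0.18 (SE). Top2a, the topoisomerase that untangles replicated chromosomes, read 2.28, 1.68 and 1.99 in miR-124a tumours, against 2.18, 2.08 and 2.75 in control tumours, a log2 fold change of -0.36 ± 0.23. Control tumour 3 was the highest and miR-124a tumour 2 the lowest for both genes, and neither passed the threshold (limma, adjusted p = 0.224 and 0.352).

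Among the D-type cyclins, which carry growth signals to CDK4 and CDK6, the change was in Ccnd3. Ccnd3 (probe on chromosome 17, 47736579 to 47736638, build mm9) read 3.96, 3.96 and 4.26 in miR-124a tumours, against 5.03, 5.34 and 5.07 in control tumours. Every miR-124a tumour lay below every control, with a gap wider than the range within either group. Its signal was lower by a factor of 2.13 (log2 fold change -1.09 ± 0.14, SE, 3 tumours per group; limma, adjusted p = 0.0228), and its 3 probes gave -1.09 to -0.75. Ccnd1, the widely expressed D-type cyclin, read 1.89, 1.88 and 1.98 in miR-124a tumours, against 1.93, 2.00 and 2.29 in control tumours, a log2 fold change of -0.15 ± 0.12. Ccnd2, the D-type cyclin prominent in neural and germ cells, read 5.67, 5.30 and 5.48 in miR-124a tumours, against 5.41, 5.57 and 5.59 in control tumours. The Ccnd2 difference of -0.040 ± 0.12 took the opposite sign with quantile scaling (0.11) and normexp (0.18), and its 3 probes ranged from -0.040 to 0.11. Neither Ccnd1 nor Ccnd2 passed (limma, adjusted p = 0.442 and 0.858), and their 95% intervals ran from -0.44 to 0.14 and from -0.34 to 0.26.

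The change of Ccnd3 was set beside those of the other D-type cyclins. Measured within each tumour, the Ccnd3 signal shifted by -0.94 relative to Ccnd1 and by -1.05 relative to Ccnd2 on the log2 scale. For both pairs the 3 miR-124a differences lay outside the range of the 3 control differences. These pairs, and the 3 E2F pairs below, were chosen after their values were seen, so their separation is not support for a difference. An exact permutation test gave p = 0.1 for each of the 5 pairs. That is the smallest p it can give for 3 against 3 tumours, so it cannot decide the question.

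**Figure D3:**
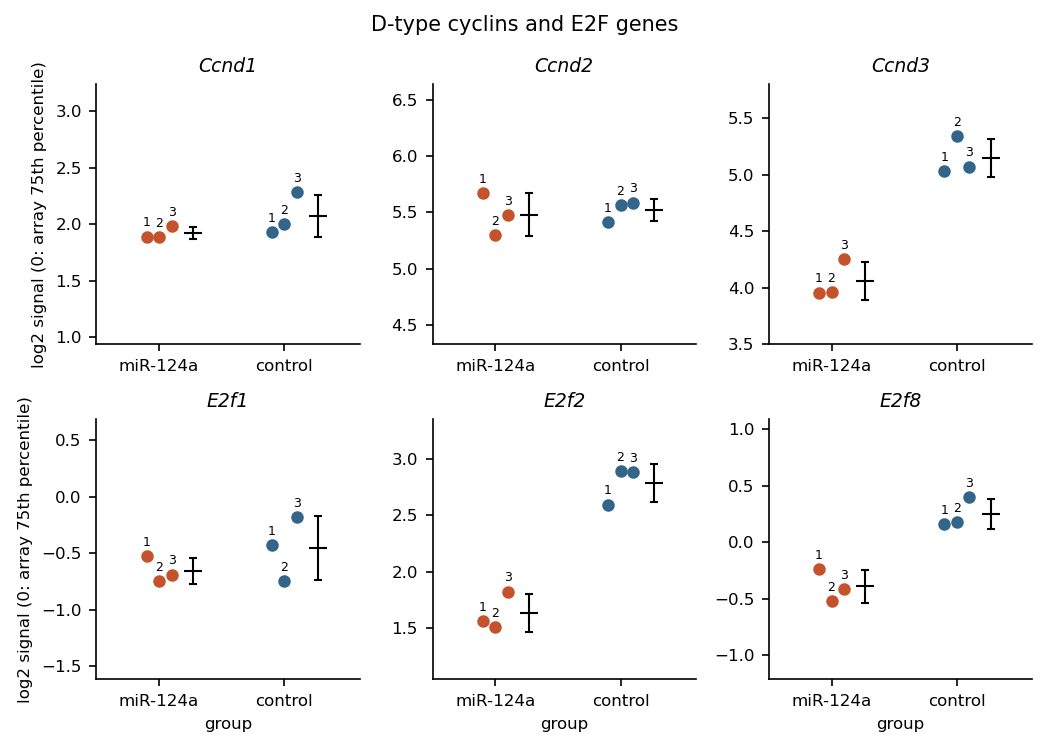
Log2 signal (0 is the 75th percentile of the array) of 3 D-type cyclin genes and 3 E2F genes in each tumour; numbered points are tumours, and the cross line and bars are the mean and SD of 3 tumours. All panels span the same height, and the groups are apart for Ccnd3, E2f2 and E2f8 and overlap for the other genes drawn.

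Of the cyclin-dependent kinases, none passed the threshold. Cdk2, the partner of cyclins E and A in S phase, read -1.90, -2.18 and -1.88 in miR-124a tumours, against -1.82, -0.84 and -1.09 in control tumours. The groups did not overlap, yet control tumour 1 lay beside the miR-124a tumours and far below the other controls. Its log2 fold change was -0.73 ± 0.26 (limma, adjusted p = 0.140), the lowest of the 48 after E2f2 and Ccnd3. Cdk1, the kinase that drives entry into mitosis, read -0.81, -1.15 and -1.09 in miR-124a tumours, against -0.67, -0.93 and -0.36 in control tumours, a log2 fold change of -0.36 ± 0.17 (limma, adjusted p = 0.234).

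Both G1 kinases of the D-type cyclins overlapped between groups. Cdk4 read 4.80, 4.37 and 4.32 in miR-124a tumours, against 4.47, 4.56 and 4.87 in control tumours, a log2 fold change of -0.14 ± 0.17. Cdk6 read 0.59, 0.075 and 0.56 in miR-124a tumours, against 0.066, 0.24 and 0.36 in control tumours. Cdk6 is a reported direct target of miR-124 in human medulloblastoma cells. In these tumours its log2 fold change of 0.18 ± 0.17 was the highest of the 48 members, with a 95% interval of -0.23 to 0.59 (limma, adjusted p = 0.512). A second tested Cdk6 probe gave 0.12.

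Ccne1, the E-type cyclin that brings cells into S phase, read 1.11, 0.97 and 0.76 in miR-124a tumours, against 1.19, 1.23 and 1.41 in control tumours. The groups did not overlap, and the log2 fold change was -0.33 ± 0.13 (limma, adjusted p = 0.160). Ccna2, the cyclin of S phase and G2, read 1.74, 1.35 and 1.50 in miR-124a tumours, against 1.88, 1.79 and 2.19 in control tumours, also without overlap, with -0.42 ± 0.15 (limma, adjusted p = 0.148). Ccnb1, the mitotic partner of CDK1, overlapped, at 2.06, 1.32 and 1.61 with miR-124a and 1.84, 1.69 and 2.37 with control and a log2 fold change of -0.30 ± 0.25. Ccnb2, the second B-type cyclin measured, was close to it at -0.31 ± 0.19. Control tumour 3 was the highest of the 6 for Ccne1 and for all 3 A- and B-type cyclins, and none of the 4 passed.

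Among the transcription factors, the changes were in 2 of the 3 E2F members. E2f2, an activator that switches on S-phase genes, lies on chromosome 4 (probe at 135750562 to 135750621, mm9). It read 1.56, 1.51 and 1.83 in miR-124a tumours, against 2.60, 2.89 and 2.88 in control tumours. The miR-124a tumours all lay below the controls, by more than the range within either group, and a second probe gave nearly the same change (-1.09 against -1.16). E2f2 was lower by a factor of 2.23 (log2 fold change -1.16 ± 0.13, SE, 3 tumours per group; limma, adjusted p = 0.0220).

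E2f8, a repressor without the usual E2F partner, represses S-phase genes late in the cycle. It read -0.24, -0.53 and -0.41 in miR-124a tumours, against 0.16, 0.18 and 0.40 in control tumours (probe on chromosome 7, 56121860 to 56121919, build mm9). The groups did not overlap, and the log2 fold change was -0.64 ± 0.12 (limma, adjusted p = 0.0491), 1.56-fold lower. The 2 tested E2f8 probes disagreed, since the other, which the array ties to another transcript, gave -0.11. E2f1, the founding activator of the family, read -0.53, -0.75 and -0.69 in miR-124a tumours, against -0.43, -0.75 and -0.18 in control tumours, a log2 fold change of -0.20 ± 0.16, and its groups overlapped. Relative to E2f1, the change was -0.95 for E2f2 and -0.44 for E2f8, and E2f2 changed by -0.52 relative to E2f8. In each of these pairs the miR-124a and control differences did not overlap.

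The calls of these genes were lost in some fits with 1 tumour left out, as were nearly all calls over the array. Of all 22944 genes, limma called 1 without miR-124a tumour 1 and 0 without miR-124a tumour 2. It called 12 without control tumour 1 and 0 without control tumour 2. The lost calls in these fits are therefore not particular to these genes. They did depend on the tumour left out, since limma called 365 genes without miR-124a tumour 3 and 336 without control tumour 3. Over 15 alternative analyses the log2 fold change ran from -1.19 to -0.91 for Ccnd3 and from -1.25 to -1.04 for E2f2, and each passed in 9. Without miR-124a tumour 1 or 2 or control tumour 1 or 2, where neither passed, the adjusted p was 0.0686 to 0.109 for Ccnd3 and 0.0578 to 0.106 for E2f2 (limma). E2f8 ran from -0.72 to -0.37, where -0.37 was the value with the mean of its probes (limma, adjusted p = 0.200). It passed in 4 of 15 and in none of the 6 with a tumour left out, with an adjusted p of 0.0841 to 0.160 there.

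Foxm1 and Mybl2 encode the factors of the mitotic programme. Foxm1 read 1.59, 1.04 and 1.18 in miR-124a tumours, against 1.31, 1.35 and 1.86 in control tumours, a log2 fold change of -0.24 ± 0.21, and its second tested probe gave -0.56. Mybl2, the MYB protein of the complex that binds these promoters first, read 1.38, 0.73 and 0.78 in miR-124a tumours, against 1.33, 0.59 and 1.54 in control tumours. Control tumour 2 was the lowest and control tumour 3 the highest of the 6 for Mybl2, and the log2 fold change was -0.19 ± 0.30. Neither passed (limma, adjusted p = 0.485 and 0.704).

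Of the 10 genes of replication licensing and the fork and the 3 of nucleotide supply, 0 passed, against 3.18% of all genes. The median log2 fold change over the 13 was -0.23. Mcm2, a subunit of the MCM helicase that opens DNA, read 1.65, 0.96 and 1.35 in miR-124a tumours, against 1.35, 1.17 and 2.13 in control tumours. Control tumour 3 stood well above the other 5, and the log2 fold change was -0.23 ± 0.29. Without control tumour 3 the signs of 8 members turned, namely Mcm2 (0.059), Mcm4 (0.00061), Cdc45 (0.035), Rrm2 (0.014), Mybl2 (0.0032), Bub1 (0.022), Ttk (0.053) and Cenpf (0.036). The other MCM genes, Mcm3 to Mcm7, lay between -0.28 and -0.15. Pcna, the sliding clamp of the fork, read 3.50, 3.30 and 3.37 in miR-124a tumours, against 3.42, 3.37 and 3.70 in control tumours, a log2 fold change of -0.10 ± 0.12 and among the smallest of these genes.

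Cdc6, which with Cdt1 loads the helicase, read -1.28, -1.63 and -1.88 in miR-124a tumours, against -1.55, -1.67 and -1.57 in control tumours. Its log2 fold change of 0.0016 ± 0.16 has no settled sign: it was -0.020 with quantile scaling, -0.018 with normexp, and -0.29 at its other tested probe. Cdt1 was at -0.27 ± 0.16. Cdc45, another part of the helicase, was at -0.14 ± 0.20, and its second tested probe had the opposite sign (0.11). Rrm2, the regulated subunit of the enzyme that makes deoxynucleotides, read 3.30, 2.73 and 2.91 in miR-124a tumours, against 3.00, 2.93 and 3.52 in control tumours, a log2 fold change of -0.17 ± 0.21. Rrm1, its partner subunit, was at -0.26 and Tyms, which makes thymidylate, at -0.24. Control tumour 3 was the highest of the 6 in 12 of these 13 genes, all but Cdc6.

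Of the tested members, 24 serve G2 and mitosis. They are Mki67, Top2a, Cdk1, the A- and B-type cyclins, Foxm1 and the mitotic kinase, checkpoint, anaphase, spindle, centromere and kinetochore genes. None of the 24 passed (0 with limma), against 3.18% of all genes. At an unadjusted p under 0.05, 4 (16.7%) were lower, against 15.6% of all genes. The median log2 fold change over the 24 was -0.31. Their per-tumour medians relative to the control mean were 0.0093, -0.57 and -0.35 in miR-124a tumours, against -0.12, -0.24 and 0.34 in control tumours. Control tumour 3 was the highest of the 6 in 23 of the 24 and miR-124a tumour 2 the lowest in 23, so the groups overlapped through miR-124a tumour 1 and the first 2 controls.

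Aurka, the Aurora kinase of the centrosome and spindle pole, read 1.45, 0.85 and 0.95 in miR-124a tumours, against 1.34, 1.11 and 1.55 in control tumours, a log2 fold change of -0.25 ± 0.19. Plk1, the Polo kinase of mitotic entry, read 2.08, 1.47 and 1.64 in miR-124a tumours, against 1.92, 1.78 and 2.42 in control tumours, at -0.31 ± 0.22. Birc5, or survivin, a subunit of the chromosomal passenger complex, read 3.30, 2.74 and 2.98 in miR-124a tumours, against 3.22, 3.19 and 3.60 in control tumours, at -0.33 ± 0.18. All 3 overlapped in the same way, with miR-124a tumour 1 among the controls. Aurkb, the kinase of that complex, had the lowest value of the group at -0.57 ± 0.17, without overlap (limma, adjusted p = 0.112). The checkpoint genes Bub1, Bub1b and Ttk, which hold anaphase until chromosomes are attached, lay between -0.22 and -0.18.

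Cdc20, which activates the anaphase-promoting complex, read 2.57, 1.89 and 2.24 in miR-124a tumours, against 2.47, 2.35 and 2.88 in control tumours, a log2 fold change of -0.33 ± 0.22. Ube2c, the ubiquitin-conjugating enzyme of that complex, did not overlap between groups and was at -0.47 ± 0.20 (limma, adjusted p = 0.184). Of the spindle genes, Kif11, a motor that pushes the poles apart, was lowest at -0.48 ± 0.19 and did not overlap. Kif20a and Kif23, motors of cytokinesis, and Tpx2 and Nusap1, which organise microtubules, lay between -0.34 and -0.21 and overlapped. Cenpa, the histone variant of centromeres, was at -0.29 and Cenpf, a kinetochore protein, at -0.21.

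Cenpe, a kinetochore motor, read 1.87, 1.29 and 1.67 in miR-124a tumours, against 1.61, 1.37 and 1.78 in control tumours. It was 1 of the 3 members above 0, at 0.028 ± 0.18, and its sign turned without control tumour 2 (-0.081), without miR-124a tumour 1 (-0.10) or without miR-124a tumour 3 (-0.0019).

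The promoters show what these genes share in sequence, which the choice of genes did not use. RefSeq promoters (GRCm38.p6) from 250 bases before to 50 after a start matched 40 of the 49 members, with 43 promoters. They were searched on both strands for the CHR (TTTGAA or TTCGAA), the CCAAT box (CCAAT) and an E2F motif (TTTCCCGC, TTTCGCGC, TTTGCCGC or TTTGGCGC). The CHR letters were in 15 of 19 promoters of the mitosis members (78.9%) and in 3 of 13 of the replication and nucleotide members (23.1%), against 19.2% of all 32851 promoters. CCAAT was in 89.5% and 76.9%, against 37.4% of all promoters. The E2F letters ran the other way, in 5.26% of mitosis and 46.2% of replication and nucleotide promoters, against 2.26% of all. A match is a description of the letters and not a bound site.

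The 7 promoters below, each 300 bases read 5′ to 3′ along the gene, show these arrangements, with the matched letters in capitals. Cdk1 (chr10:69352863-69353162, minus strand), Ccnb2 (chr9:70421505-70421804, minus strand) and Cdc20 (chr4:118437294-118437593, minus strand) carry the mitotic pair, and Cdk1 an E2F match too. Mcm5 (chr8:75109259-75109558, plus strand) carries E2F letters on both strands at 1 place, where the 2 matches overlap, and CCAAT boxes without a CHR. E2f2 (chr4:136172024-136172323, plus strand), E2f8 (chr7:48881547-48881846, minus strand) and Ccnd3 (chr17:47593217-47593516, plus strand) are the genes that fell. ATTGG and TTCAAA are CCAAT and a CHR read on the opposite strand.
Cdk1: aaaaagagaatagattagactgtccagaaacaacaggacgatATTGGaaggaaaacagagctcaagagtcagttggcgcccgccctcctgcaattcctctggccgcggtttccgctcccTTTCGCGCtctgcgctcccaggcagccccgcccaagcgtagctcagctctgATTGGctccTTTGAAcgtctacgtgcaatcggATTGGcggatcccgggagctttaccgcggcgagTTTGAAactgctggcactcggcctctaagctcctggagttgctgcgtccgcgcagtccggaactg
Ccnb2: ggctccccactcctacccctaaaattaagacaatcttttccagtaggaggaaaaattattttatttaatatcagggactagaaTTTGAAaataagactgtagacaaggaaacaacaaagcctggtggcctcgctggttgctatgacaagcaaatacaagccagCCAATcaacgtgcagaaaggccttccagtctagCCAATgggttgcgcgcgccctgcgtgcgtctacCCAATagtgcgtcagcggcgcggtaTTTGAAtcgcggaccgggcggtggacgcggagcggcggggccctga
Cdc20: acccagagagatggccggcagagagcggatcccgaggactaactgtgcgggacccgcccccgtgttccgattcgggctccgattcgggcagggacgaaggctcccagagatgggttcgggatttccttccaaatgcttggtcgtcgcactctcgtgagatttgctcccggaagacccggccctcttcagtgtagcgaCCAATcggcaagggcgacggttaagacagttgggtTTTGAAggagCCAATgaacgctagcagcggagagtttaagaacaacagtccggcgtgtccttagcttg
Mcm5: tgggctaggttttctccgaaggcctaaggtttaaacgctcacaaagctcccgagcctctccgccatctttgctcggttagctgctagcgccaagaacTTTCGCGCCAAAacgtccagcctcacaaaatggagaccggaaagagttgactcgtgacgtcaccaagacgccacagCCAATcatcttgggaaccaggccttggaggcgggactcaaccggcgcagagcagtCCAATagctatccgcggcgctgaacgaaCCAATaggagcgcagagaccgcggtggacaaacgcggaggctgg
E2f2: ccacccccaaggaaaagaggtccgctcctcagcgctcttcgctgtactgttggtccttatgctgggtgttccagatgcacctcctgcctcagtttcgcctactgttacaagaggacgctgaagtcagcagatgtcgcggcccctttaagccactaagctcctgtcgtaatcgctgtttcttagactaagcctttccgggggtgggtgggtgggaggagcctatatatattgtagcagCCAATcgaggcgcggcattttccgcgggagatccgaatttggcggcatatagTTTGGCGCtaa
E2f8: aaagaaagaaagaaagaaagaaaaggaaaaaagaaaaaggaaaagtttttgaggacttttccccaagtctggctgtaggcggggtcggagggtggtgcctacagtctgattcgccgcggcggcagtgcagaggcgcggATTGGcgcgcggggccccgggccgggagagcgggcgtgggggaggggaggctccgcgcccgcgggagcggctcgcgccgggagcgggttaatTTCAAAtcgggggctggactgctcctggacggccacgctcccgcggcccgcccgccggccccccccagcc
Ccnd3: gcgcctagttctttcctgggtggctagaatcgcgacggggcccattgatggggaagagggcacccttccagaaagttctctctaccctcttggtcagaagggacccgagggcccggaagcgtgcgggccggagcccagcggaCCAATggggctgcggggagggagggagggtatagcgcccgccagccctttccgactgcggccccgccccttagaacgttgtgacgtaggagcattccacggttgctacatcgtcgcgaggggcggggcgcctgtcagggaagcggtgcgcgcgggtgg

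In Cdc20 the CHR began 18 bases before the start, between CCAAT boxes that began 53 and 8 bases before it. Cdk1 had a CHR 15 and another 71 bases before its start. In E2f8 both elements were read on the opposite strand, the CHR 20 bases before the start. The Ccnd3 promoter held a CCAAT box 108 bases before the start and neither other motif, and a second annotated Ccnd3 promoter held none of the 3. A second annotated E2f2 promoter held a CHR and 3 CCAAT boxes in place of the E2F letters.

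The values of members with and without each motif were set side by side. The median log2 fold change was -0.30 over the 20 members with a CHR match and -0.24 over the 20 without. It was -0.27 over 9 with the E2F letters and -0.25 over 31 without. For the CCAAT box it was -0.29 over 30 with a match and -0.21 over 10 without. Of the 3 called members, 2 had a CHR match, 1 the E2F letters and 3 a CCAAT box, the motif that most members hold. These are descriptions over genes that vary together, and no test was made.

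**Figure D4:**
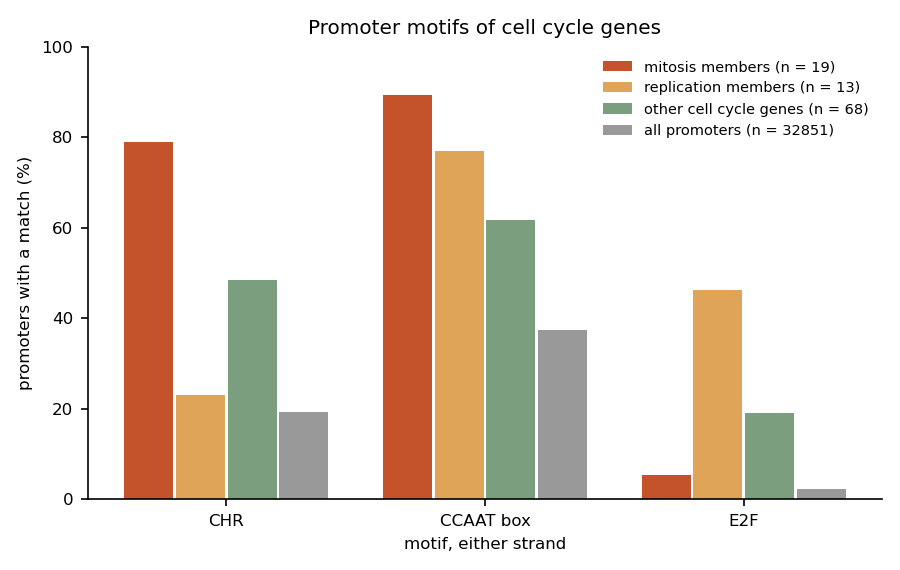
Share of promoters (percent, 300 bases each) that hold the CHR, CCAAT or E2F letters on either strand, in mitosis members, replication and nucleotide members, other cell cycle genes and all RefSeq promoters. CHR bars are tallest for mitosis members (78.9%) and E2F bars for replication and nucleotide members (46.2%).

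CDK inhibitors brake the kinases above, and 1 of the 7 measured passed (14.3%), against 3.18% of all genes. At an unadjusted p under 0.05, 3 of the 7 (42.9%) were lower, against 15.6% of all genes, and 0 were higher. Cdkn2c, which encodes the CDK4 and CDK6 inhibitor p18, read -0.45, -0.46 and -0.16 in miR-124a tumours, against 0.48, 0.48 and 0.35 in control tumours. The groups did not overlap, and Cdkn2c fell, with a log2 fold change of -0.80 ± 0.12 (limma, adjusted p = 0.0317); with 1 tumour left out it passed only without miR-124a tumour 3, and the adjusted p was 0.0550 to 0.134 without any 1 of the others. Cdkn1c (p57) was at -0.59 ± 0.42, Cdkn2a (p16 and ARF) at -0.46 ± 0.17, and Cdkn1a (p21) at -0.37 ± 0.15. Cdkn2b (p15) was at -0.11 ± 0.16, Cdkn1b (p27) at -0.10 ± 0.12, and Cdkn2d (p19) at 0.11 ± 0.14. None of these 6 passed (limma, adjusted p = 0.158 to 0.682). None of the 7 was called higher; the second tested probe of Cdkn2b had the opposite sign (0.014).

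The wider pathway had values close to those of the members. Of 73 other tested cell cycle genes, 0 passed in either direction with limma, against 3.18% of all genes. At an unadjusted p under 0.05, 4 (5.48%) were lower, against 15.6% of all genes, and 0 were higher. In 8 of the 73 every miR-124a tumour lay below every control tumour, against 20.2% of all genes. Both shares were below those over the whole array. The median over the 73 was -0.22, with 66 of 73 below 0, and control tumour 3 was the highest of the 6 in 65. The smallest p-values were those of Tk1, thymidine kinase, at -0.50 ± 0.12, Mnat1, a subunit of the CDK-activating kinase, at -0.33 ± 0.084, and Gins3, a subunit of the replicative helicase, at -0.31 ± 0.094 (limma, adjusted p = 0.0784, 0.0844 and 0.111). In all 3 the miR-124a tumours lay below the controls.

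Of the pocket proteins, other E2F factors and their MuvB and other partners, 0 of 15 passed with limma, against 3.18% of all genes. Some but not all of these proteins hold cell cycle promoters silent in resting cells. At an unadjusted p under 0.05, 4 of the 15 (26.7%) were lower, against 15.6% of all genes, and 1 was higher. The 4 were Rb1, E2f3, E2f4 and E2f6, and the 1 was E2f5. The median over the 15 was -0.13. Rb1, the retinoblastoma protein, read 2.09, 2.21 and 2.22 in miR-124a tumours, against 2.59, 2.63 and 2.57 in control tumours, without overlap and just above the threshold at -0.42 ± 0.087 (limma, adjusted p = 0.0584). E2f4, the repressor E2F of resting cells, was at -0.29 ± 0.10 and E2f5, its close relative, at 0.37 ± 0.14 (limma, adjusted p = 0.142 and 0.152).

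**Figure D5:**
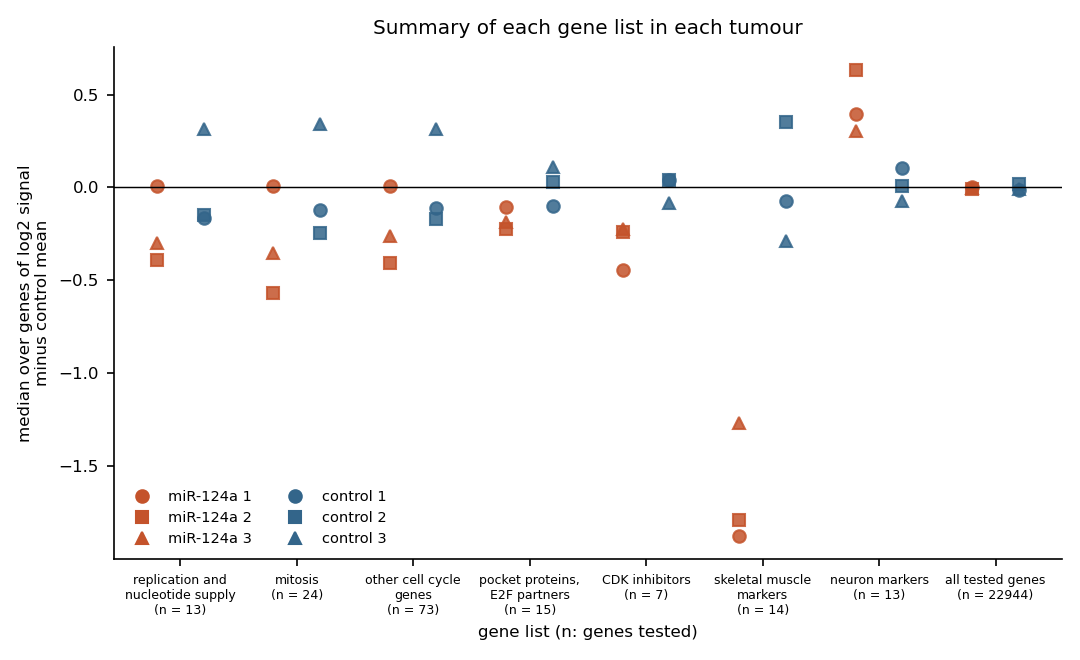
Median over the genes of each list of the log2 signal minus the control mean of the gene, for each of the 6 tumours (colour is the group, shape the tumour number). In the 3 cell cycle lists miR-124a tumour 1 lies among the controls and control tumour 3 is the highest, whereas for skeletal muscle markers the 3 miR-124a tumours lie far below the controls.

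Markers of other tissues were read from the same fit. Skeletal muscle markers fell in 13 of 14 tested genes (limma), or 92.9%, against 2.68% of all genes called lower. Their median log2 fold change was -1.64, and Myf5 was well above background on 0 of 6 arrays. With 1 tumour left out, 12 of them passed without miR-124a tumour 3, 7 without control tumour 3 and 0 without any of the others. In the fits with 0, at most 12 of all genes passed. Their summed linear signal, in multiples of the 75th percentile, was 361 to 525 in miR-124a tumours, against 951 to 1497 in control tumours, without overlap. Myod1, the master factor of muscle, read -1.48, -1.40 and -0.98 in miR-124a tumours, against 0.51, 1.12 and 0.47 in control tumours. Cyclin D3 and p18 are known to accumulate when cultured mouse myoblasts leave the cycle, and the part of muscle content in the values of Ccnd3 and Cdkn2c was not tested.

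Neuron markers had 0 of 13 past the threshold with limma, against 3.18% of all genes. However, 8 of the 13 were higher at an unadjusted p under 0.05, against 2630 of all 22944 genes. The median over the 13 was 0.45. Their summed signal was 309 to 393 in miR-124a tumours, against 225 to 268 in control tumours, without overlap. Of the neural progenitor, simple epithelium, keratinocyte, cartilage, blood cell and pluripotency markers, 0 passed with limma, against 3.18% of all genes. The summed signals of these lists overlapped between groups. At an unadjusted p under 0.05, each of these lists had at most 1 gene lower and at most 1 higher. E2f2 and E2f8 are known from mouse red cell precursors, so erythroid genes were added after the values were seen. Their summed signal was 135 to 611 in miR-124a tumours, against 141 to 486 in control tumours, with broad overlap, and Epb42 and Gata1 were well above background on 0 of 6. Of the 5 tested, Klf1 was called higher (limma, adjusted p = 0.0215) and was well above background on 0 of 3 control arrays; it passed in 7 of the 14 alternatives that tested it. The part of these cell types in the cell cycle values was not tested.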

How the data were processed

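The deposited scanner files hold 1-colour (Cy3) spot intensity, corrected for background with Agilent Feature Extraction (11.5.1.1), per the file headers and the submitters' processing notes. The authors' deposited value table holds log2 values. A comparison with the scanner intensities found each column to be their log2 shifted by a constant per array (SD of the difference 0.0029 to 0.0042), with no centring per probe and medians of -2.97, -2.99 and -2.98 for miR-124a tumours 1 to 3 and -2.98, -3.07 and -2.98 for control tumours 1 to 3. It served as an alternative.

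Each array has 62976 spots, of which 59305 are not controls. They were averaged to 56605 probes, and 22 outlier probes were left out. The 75th percentile of intensity, subtracted on the log2 scale, was 209.3 to 223.1 in miR-124a tumours and 197.8 to 207.5 in control tumours. Tests used probes detected well above background in every tumour of either group or of both (35719 probes, 22944 genes, of which 8228 had more than 1 such probe), and a gene is its brightest tested probe. The test was limma's (version 3.58.1, R 4.3.3; lmFit, eBayes, Benjamini-Hochberg over all tested genes, threshold 0.05), checked on simulated data. The number of arrays limits the precision.

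The members, lists and tests were chosen with earlier results of these data known. Values per tumour are given for members past the threshold, the 3 largest and 3 smallest log2 fold changes and 22 listed core genes. All CDK inhibitors are named, and the 3 smallest p-values of each other cell cycle list. Same-numbered tumours did not deviate together (correlations -0.16, -0.039 and -0.065, against -0.21 to 0.34 for tumours with different numbers). These correlations cannot show whether tumours were paired by design, and the main fit did not pair them. Positions are those of the array annotation (mm9), and promoters are from RefSeq (GRCm38.p6), read with pandas 2.3.3. Figures were drawn with matplotlib 3.10.9.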

Additional observations from a re-analysis of the deposited data

How the results depend on the processing

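The analysis was repeated under 15 alternatives. The median over the members (-0.26) was also below 0 with quantile scaling (-0.23), normexp (-0.20), array weights, the deposited value table, the mean of the probes of a gene, variance trend with robust estimation and a filter on all 6 arrays. The count of members below 0 was 45 under each of these, with 44 of them the same genes under quantile scaling, normexp, array weights and the mean of probes. Members called were 3, or 2 with array weights, the value table or the mean of probes. They were 0 with no filter on dim probes, where 36999 genes were tested and 81 called. With the replicate number as a block, 0 members and 0 of all genes passed (limma, 4954 genes at an unadjusted p under 0.05), with an adjusted p of 0.115 for Ccnd3, 0.114 for E2f2 and 0.154 for E2f8; variance trend with robust estimation called 1584 genes. With 1 tumour left out, members called ranged from 0 to 2, their median from -0.40 to -0.097 and the count below 0 from 37 (without control tumour 3) to 47. Other cell cycle genes called were 1 with normexp (Mnat1, adjusted p = 0.0465, limma) and 0 otherwise.

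The sign of Ccnd2 turned with array weights (0.00082), the mean of probes (0.028), normexp (0.18) and quantile scaling (0.11), and ranged from -0.13 to 0.053 with 1 tumour left out. That of Cdc6 turned with the same alternatives (-0.048, -0.14, -0.018 and -0.020) and ranged from -0.16 to 0.14. With 1 tumour left out, Cenpe ranged from -0.10 to 0.19, Mcm2 from -0.42 to 0.059, Mybl2 from -0.48 to 0.0032 and Rrm2 from -0.33 to 0.014. The signs of Mcm4, Cdc45, Bub1, Ttk and Cenpf also turned without control tumour 3, and that of Cdc45 (0.012) without miR-124a tumour 3. The causes were not tested. Precision is limited by 3 tumours per group on 1 slide.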
